A study of Homo sapiens with 2 samples.

Results

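Messenger RNAs of 6 nuclear genes that encode subunits of the mitochondrial respiratory chain and ATP synthase were examined for A-to-G mismatches. The genes were chosen by name and were located by their hg19 intervals and strands. ATP5A1 lies on chromosome 18 from 43664110 to 43684199 (minus strand) and ATP5B on chromosome 12 from 57031959 to 57039852 (minus). SDHA lies on chromosome 5 from 218338 to 256814 (plus), UQCRC1 on chromosome 3 from 48636432 to 48647098 (minus), UQCRC2 on chromosome 16 from 21964609 to 21994981 (plus) and CYC1 on chromosome 8 from 145149930 to 145152428 (plus). Every listed A position of the transcript strand inside an interval was taken. These were 2274 positions with ABA and 2300 without ABA, 2366 in either library, out of 4736485 positions listed in the whole series. No hg19 gene models were at hand in this work, so whether a site falls in an exon, intron or UTR was not determined.

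The study tested a small molecule, ABA, as a switch for an RNA-targeting system in the human embryonic kidney line HEK-293T. Both groups carried a CIRTS-hADAR biosensor, an engineered RNA-targeting system joined to a human ADAR editing enzyme, and they differed in whether ABA was present. Each group, ABA and no ABA, was 1 library of 1 biological replicate, so that library and condition cannot be told apart. The libraries held 45277712 base reads with ABA and 51092343 without ABA. The identity of the cells was not checked against marker genes, since those were not located. ADAR deaminates adenosine to inosine, which is read as G. The edited share of a position is the percentage of G among its A and G reads. Intervals are given at 95%, cover no error but that of counting, and are too narrow to the extent that 1 read covers several A positions.

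Oxidative phosphorylation passes electrons through membrane complexes and uses the resulting proton gradient to make ATP. Its complexes are built from subunits of separate origin. Most, including all of complex II, are encoded in the nucleus, translated in the cytosol and imported. A core set of complexes I, III, IV and V is encoded by mitochondrial DNA and is transcribed and translated inside the organelle. ATP5A1 and ATP5B, now named ATP5F1A and ATP5F1B, are the alpha and beta subunits of the catalytic head of ATP synthase, complex V. SDHA is the flavin-binding subunit of succinate dehydrogenase, complex II, which also serves in the citric acid cycle. UQCRC1 and UQCRC2 are the core proteins of complex III, and CYC1 is its cytochrome c1, which hands electrons to cytochrome c. The complex III and V transcripts among the 6 genes thus share complexes with subunits encoded by the mitochondrial genome, from separate compartments. SDHA shares no complex with them.

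A-to-G mismatches were more frequent with ABA over the 6 transcripts together. With ABA, 83 of 72302 reads were G, a rate of 0.115% (0.0914 to 0.142), against 34 of 64970 reads without ABA, 0.0523% (0.0362 to 0.0731). The ratio of ABA over no ABA was 2.19 (1.46 to 3.37, exact conditional binomial interval). The point estimate was above 1 in 6 of 6 genes, but every single-gene interval except that of ATP5A1 included 1. All other nuclear positions had a ratio of 2.01 (1.97 to 2.04), so a ratio above 1 was not particular to these genes. The values of the 6 genes leave out 3 positions with an edited share of at least 35% in either library, described further on as variant-like. Other changes at the same positions were rarer: A-to-C plus A-to-T made up 14 reads with ABA, 0.0194%, and 6 without ABA, 0.00924%. Their ratio, 2.10 (0.757 to 6.66), rested on so few reads that the A-to-G ratio could not be set apart from it: the quotient of both ratios was 1.05 (0.371 to 2.95). In percentage points the A-to-G rate rose by 0.0625 and that of the other changes was 0.0101 higher.

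**Figure D1:**
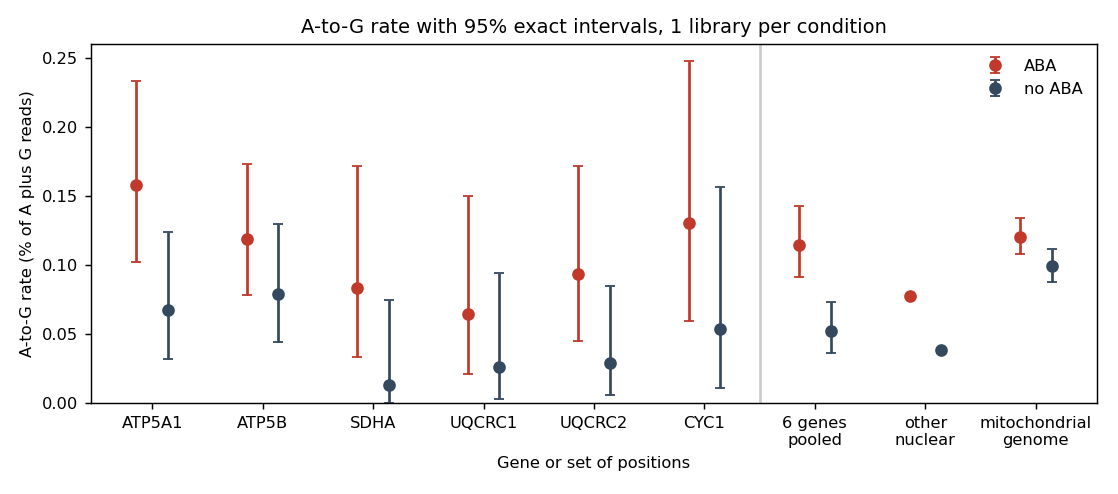
A-to-G rate in percent of A plus G reads (vertical axis) for each gene, the 6 genes pooled, all other nuclear positions and the mitochondrial genome, with ABA (red) and without ABA (dark blue). Points are rates of 1 library each and bars are 95% exact intervals. The ABA point is above the other in 6 of 6 genes, in other nuclear positions and in the mitochondrial genome. The pooled rates of the 6 genes are 0.115% and 0.0523%.

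Of the ATP synthase subunits, ATP5A1 showed the clearer difference. It had 25 G reads among 15817 with ABA, 0.158% (0.102 to 0.233), and 10 among 14836 without ABA, 0.0674% (0.0323 to 0.124). The ratio was 2.34 (1.09 to 5.47), the only one of the 6 single-gene intervals that lay above 1. It included 1 when the position with most G reads was left out (2.06, 0.938 to 4.88). ATP5B, the most deeply read of the 6, had 27 of 22692 reads with ABA, 0.119% (0.0784 to 0.173), and 15 of 19050 without ABA, 0.0787% (0.0441 to 0.130). Its ratio was 1.51 (0.776 to 3.06), the lowest of the 6, and its rate without ABA was the highest. Both complex V genes pooled had 52 G reads with ABA and 25 without ABA, a ratio of 1.83 (1.12 to 3.08). A-to-C reads in the same 2 genes numbered 7 of 38464 with ABA and 0 of 33861 without ABA, at least 2.05-fold higher with 3 reads taken as the floor, counting error of the 7 reads aside. The exact lower limit of that ratio was 1.27, so A-to-C was also higher with ABA in complex V, on 7 reads. A-to-T reads in these genes numbered 3 of 38460 with ABA and 2 of 33863 without ABA, a ratio of 1.32 (0.151 to 15.8).

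The complex III transcripts were shallower and their single intervals wide. UQCRC2 had 10 G reads of 10724 with ABA, 0.0932% (0.0447 to 0.171), and 3 of 10374 without ABA, 0.0289% (0.00596 to 0.0845), a ratio of 3.22 (0.830 to 18.2). CYC1 had 9 of 6901 with ABA, 0.130% (0.0597 to 0.247), and 3 of 5600 without ABA, 0.0536% (0.0110 to 0.156), a ratio of 2.43 (0.608 to 14.0). UQCRC1, the partner of UQCRC2 in the core of the complex, had the lowest rate with ABA. Its counts were 5 of 7782 reads with ABA, 0.0643% (0.0209 to 0.150), and 2 of 7666 without ABA, 0.0261% (0.00316 to 0.0942), a ratio of 2.46 (0.403 to 25.9). Pooled over the 3 genes, 24 reads with ABA stood against 8 without ABA, 0.0945% and 0.0338%, a ratio of 2.79 (1.21 to 7.19). Their A-to-C reads numbered 3 in each library.

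SDHA had the highest ratio, with 1 G read behind its rate without ABA. Its 7 G reads of 8386 with ABA, 0.0835% (0.0336 to 0.172), stood against 1 of 7444 without ABA, 0.0134% (0.000340 to 0.0748), a ratio of 6.21 (0.798 to 280). No gene was set apart from the other 5 by its ratio, since all 6 intervals of the quotient included 1. The quotient of a gene's ratio and that of the other 5 was lowest for ATP5B, 0.554 (0.244 to 1.26), and highest for SDHA, whose interval was 0.355 to 25.3.

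The rate difference of the 6 transcripts was not distinguishable from that of other nuclear transcripts. All other nuclear positions, variant-like ones left out, had 0.0776% with ABA and 0.0386% without ABA, a ratio of 2.01 (1.97 to 2.04). The ratio of the 6 genes divided by it was 1.09 (0.732 to 1.63, normal approximation). A-to-C plus A-to-T at other nuclear positions had a ratio of 1.15 (1.11 to 1.20), and their A-to-G ratio was 1.74 times as large (1.67 to 1.82). The A-to-G rise in percentage points was 0.0625 (0.0322 to 0.0928) in the 6 genes and 0.0390 (0.0380 to 0.0399) elsewhere, a difference of 0.0235 (-0.00683 to 0.0538). Both rates of the 6 genes lay above the nuclear ones, and median depth was greater too, at 29 reads with ABA and 27 without ABA, against 11 and 12 elsewhere. Over other nuclear positions the rate was higher in deeper ones. With 10 to 19 reads in the shallower library, the 6 genes had 0.123% with ABA and 0 G reads without ABA, against 0.0637% and 0.0333% elsewhere. With 20 to 49 reads they had 0.114% with ABA and 0.0507% without ABA, against 0.0976% and 0.0525%. With 50 reads or more they had 0.125% and 0.106%, against 0.239% and 0.128%, so that the order of the ABA rates differed between depth classes.

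Against the mitochondrial genome, the 6 nuclear transcripts had the higher ratio. Its messenger RNAs include those of partner subunits in complexes III and V, but all of its listed positions were taken, coding or not. Mitochondrial positions had 341 G reads of 283264 with ABA, 0.120% (0.108 to 0.134), and 269 of 271010 without ABA, 0.0993% (0.0878 to 0.112), a ratio of 1.21 (1.03 to 1.43). All other nuclear positions, at 2.01 (1.97 to 2.04), also lay above this ratio, so the contrast was not particular to the 6 genes. The 6 genes' ratio was 1.81 times that of the mitochondrial genome (1.18 to 2.78). Their rise exceeded the mitochondrial rise of 0.0211 percentage points by 0.0413 (0.00638 to 0.0763). With at least 20 reads required in both libraries the quotient was 1.51 and its interval included 1 (0.974 to 2.35). With ABA, the rates of both sets, 0.115% and 0.120%, had overlapping intervals, while without ABA the 6 genes had the lower one, 0.0523% against 0.0993%. For each of the 6 genes taken alone the interval of this quotient included 1, as in ATP5A1 at 1.93 (0.913 to 4.10). On the mitochondrial minus strand 0 of 7757 reads were G with ABA, with an exact upper limit of 0.0475%, and 4 of 12079 without ABA. With the plus strand alone, in whose sense all mitochondrial messenger RNAs but ND6 read, the quotient was 1.81 (1.18 to 2.79). Over both strands, mitochondrial A-to-C plus A-to-T had a ratio of 1.12 (0.834 to 1.50), beside 2.10 (0.757 to 6.66) in the 6 genes. The mitochondrial A-to-G ratio divided by its own was 1.08 (0.784 to 1.50), so it was not set apart from other changes. Whether the contrast with the 6 genes is particular to A-to-G was not tested.

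The contrast with the mitochondrial genome was also formed within depth classes, which were not tested against each other. At positions with 20 to 49 reads in the shallower library, the 6 genes had 53 G reads with ABA and 21 without ABA, a ratio of 2.25 (1.34 to 3.93). Mitochondrial positions of that depth had 1.05 (0.729 to 1.52), and the quotient was 2.14 (1.16 to 3.97). At 50 reads or more, 17 G reads with ABA stood against 13 without ABA, a ratio of 1.17 (0.537 to 2.63), beside 1.27 (1.05 to 1.53) in the mitochondrial genome. The quotient was then 0.928 (0.441 to 1.95), and the intervals of both classes overlap. These deep positions numbered 198, of which 170 belonged to ATP5B and the rest to ATP5A1, so that depth and gene cannot be told apart in them. Other nuclear positions of 50 reads or more kept a ratio of 1.87 (1.79 to 1.96), and the quotient of the 6 genes against them was 0.628 (0.305 to 1.29). From 10 to 19 reads, the 6 genes had 12 of 9789 G reads with ABA and 0 of 9074 without ABA, at least 3.71-fold higher with that floor, counting error of the 12 reads aside, and with an exact lower limit of 2.58.

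**Figure D2:**
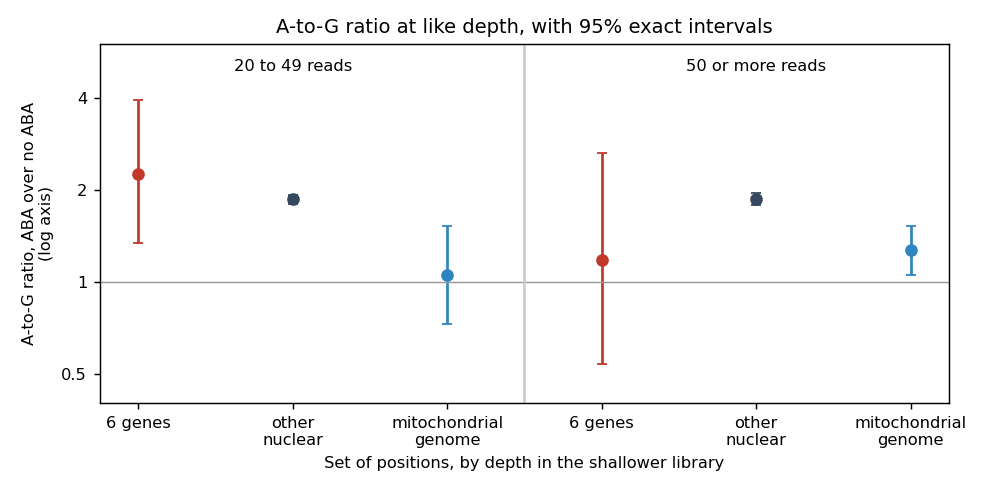
Ratio of the A-to-G rate, ABA over no ABA (log axis), at positions with 20 to 49 reads (left) and 50 or more reads (right) in the shallower library, for the 6 genes (red), other nuclear positions (dark blue) and the mitochondrial genome (light blue). Bars are 95% exact intervals. At 20 to 49 reads the 6 genes stand at 2.25 and the mitochondrial genome at 1.05, while at 50 or more reads they stand at 1.17 and 1.27.

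The G reads were scattered over many positions of the 6 transcripts. Of 2205 positions listed in both libraries, variant-like ones left out, 68 (3.08%) had a G read with ABA and 33 (1.50%) without ABA, and 3 had one in both. The edited share was higher with ABA at 66 of them, 2.99%, against a nuclear background of 0.954%. It was lower at 32, 1.45%, against a background of 0.52%. Both shares stood above their background, and the positions of the 6 genes were deeper; the part of depth in this was not tested. With ABA, 56 of 68 positions with G had a single G read, and without ABA 32 of 33 did. Of the 3 positions with G in both libraries, 2 lay in ATP5B and 1 in UQCRC1.

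**Figure D3:**
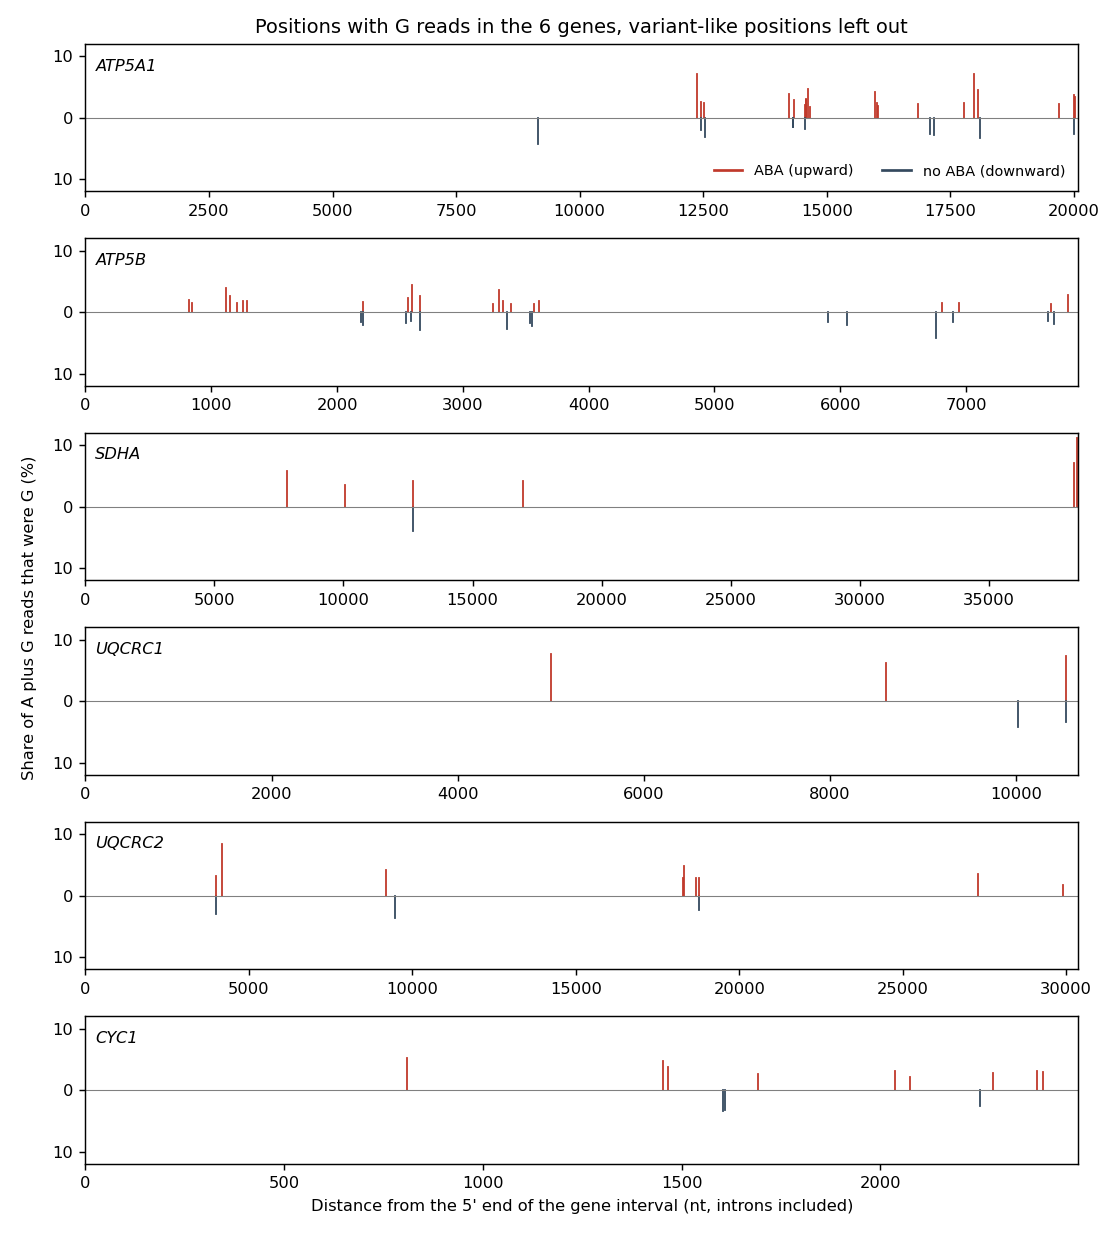
Share of A plus G reads that were G (vertical axis, percent) at each position with a G read, along the distance in nt from the 5' end of the gene interval, with ABA upward (red) and without ABA downward (dark blue), variant-like positions left out. Most lines are single G reads. The 2 libraries share 3 positions, and the highest share is 11.1%, in SDHA with ABA.

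Reads were also pooled over blocks, runs of listed positions at most 100 nt apart with at least 200 reads in each library. The 6 genes held 56 blocks. A higher rate with ABA was found in 28, 50%, where 26.9% of all nuclear blocks were, and lower in 10, 17.9%, where 12.9% were. In the remaining 18, or 32.1%, no G read was seen in either library, against 60.2% of all blocks. Higher and lower blocks thus both stood above their background, with fewer blocks that lacked a G read. The positions of the 6 genes were deeper, and the part of depth in this was not tested. Blocks of ATP5A1 were higher in 8 and lower in 2 of 10, while those of ATP5B were higher in 4 and lower in 5 of 9. The block of ATP5A1 with most G reads, from 43669536 to 43669959, had 9 of 3530 with ABA, 0.255%, and 3 of 3503 without ABA, 0.0856%. In ATP5B the block from 57038565 to 57038736 had 7 of 3274 with ABA and 0 of 2708 without ABA, at least 1.93-fold higher with the same floor, counting error of the 7 reads aside. This block was picked after its counts were seen, so the fold tests nothing. Among the 5 lower blocks of ATP5B, that from 57033765 to 57033973 had 0 of 2420 with ABA and 2 of 2170 without ABA. SDHA was higher in 5 and lower in 0 of 11 blocks, UQCRC2 in 6 and 2 of 13, UQCRC1 in 3 and 1 of 11, and CYC1 in 2 and 0 of 2.

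No single position of the 6 genes passed the test between libraries. Fisher's exact test, two-sided and adjusted by Benjamini-Hochberg, was run over the 359217 nuclear positions that reached 20 reads in each library. It called 0 of the 1484 member positions and 0 of all positions (0%). It compares the libraries and not the conditions. At an unadjusted exact p under 0.05 it called 0 member positions, and 63 higher (0.0175%) and 2 lower (0.000557%) over all. By size alone, a change of at least 10 percentage points was reached upward by 1 member position, 0.0674%, against 0.0234% of all nuclear positions, and downward by 0, against 0.00167%. A change of at least 5 points was reached upward by 3, against 0.23% of all nuclear positions, and downward by 0, against 0.0585%.

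Away from variant-like positions, 3 had at least 3 G reads in a library, in each case with ABA. In ATP5A1, position 43666218 had 3 of 42 reads with ABA (7.14%, 1.50 to 19.5) and 0 of 35 without ABA. In ATP5B, position 57038736 had 3 of 76 with ABA (3.95%, 0.822 to 11.1) and 0 of 63 without ABA. In UQCRC1, position 48636562 had 3 of 41 with ABA (7.32%, 1.54 to 19.9) and 1 of 29 without ABA (3.45%, 0.0873 to 17.8). The intervals of both libraries overlapped at each, and the lowest of their exact p-values was 0.246 with an adjusted p of 1. A further 9 positions had 2 G reads, and of all 12 with 2 or more G reads with ABA, 10 had 0 without ABA. These 12 were picked by their G reads with ABA. As 1.50% of member positions listed in both libraries had a G read without ABA, a count of 0 there was the usual case. Without ABA, 1 position reached 2 G reads, ATP5B 57037189, with 2 of 74 reads with ABA and 2 of 67 without ABA.

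Variant-like positions were found in SDHA and CYC1 alone. SDHA position 224633 on chromosome 5 was the 1 member position past 10 percentage points, with 19 of 30 G reads with ABA (63.3%, 43.9 to 80.1) and 13 of 29 without ABA (44.8%, 26.4 to 64.3; exact p = 0.195, adjusted p = 1). SDHA position 251541 had 7 of 15 with ABA (46.7%) and 9 of 21 without ABA (42.9%), so the difference lay well inside counting error. In SDHA, position 226160 also had C in 13 of 23 reads with ABA (56.5%) and 7 of 14 without ABA (50%), and position 254599 had T in 6 of 11 with ABA (54.5%) and 8 of 11 without ABA (72.7%). Whether these are inherited variants or reads of a near-identical copy was not tested. RefSeq lists 4 SDHA pseudogenes, SDHAP1 to SDHAP4, all 4 transcribed, so the SDHA counts are uncertain to the extent that reads were assigned between them. It lists 7 pseudogenes for ATP5A1, 1 for ATP5B, 1 for UQCRC2 and 0 for UQCRC1 and CYC1. CYC1 position 145150832 was G in 12 of 12 reads in each library. With the variant-like positions kept, the pooled ratio was 1.60 (1.18 to 2.19), that of SDHA 1.28 (0.727 to 2.27) and that of CYC1 1.14 (0.558 to 2.37).

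The base beside an edited A could be read as far as it was itself a listed A. With an A directly before but not after it on the transcript, 435 of the positions of the 6 genes had 21 G reads with ABA, 0.160% (0.0991 to 0.245), and 5 without ABA, 0.0429% (0.0139 to 0.100). With an A directly after but not before, another 435 positions had 10 with ABA, 0.0755% (0.0362 to 0.139), and 6 without ABA, 0.0507% (0.0186 to 0.110). The ratios were 3.73 (1.37 to 12.7) and 1.49 (0.490 to 4.98), and their quotient of 2.51 (0.615 to 10.2) included 1. Other nuclear positions had 2.50 and 1.36 in these classes, with a quotient of 1.84 (1.74 to 1.95). Their ratio was 1.49 with an A on both sides and 2.09 with no A beside, and these intervals did not overlap. An A directly before thus did not go with a higher ratio in every class. In the 6 genes, positions with an A on both sides had 6 G reads with ABA and 1 without ABA. Those with no A beside had 46 and 22. ADAR enzymes are known to favour A or U over C or G directly before the edited A. Whether the differences between classes reflect this preference was not tested. In the mitochondrial genome the A-to-G rates with an A before only were 0.125% with ABA and 0.121% without ABA, a ratio of 1.04 (0.733 to 1.47). Its ratio was 1.32 (0.919 to 1.92) with an A after only and 1.46 (0.791 to 2.75) with an A on both sides. With no A beside it was 1.22 (0.965 to 1.55), and the intervals of all these classes included 1.

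Listed positions of each gene were split into 3 equal parts from 5' to 3' and pooled over the genes. The 5' parts had 32 G reads with ABA and 11 without ABA, a ratio of 2.63 (1.29 to 5.79). The middle parts had 30 and 13, a ratio of 2.02 (1.02 to 4.21), and the 3' parts 21 and 10, a ratio of 1.93 (0.872 to 4.60). The intervals overlap widely, and the parts were not tested against each other. ATP5A1 held 14 of its 25 ABA reads in the 5' part and ATP5B 13 of its 27 in the middle part.

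Read depth of the 6 transcripts, scaled to the nuclear base reads of positions common to both libraries, was somewhat higher with ABA. Mean depth per listed A position, a level per length, was 56.3 reads with ABA and 47.2 without ABA for ATP5B, 35.9 and 33.6 for ATP5A1, and 33.7 and 27.2 for CYC1. It was 25.0 and 24.5 for UQCRC1, 24.6 and 22.6 for UQCRC2, and 18.8 and 17.9 for SDHA. The order of the genes was the same in both libraries. Block depths of ATP5B ran from 48 to 69.9 reads with ABA and did not overlap those of ATP5A1, 22 to 45.2, whereas without ABA they did, 39.3 to 64.4 and 22.5 to 42.7. UQCRC1 and UQCRC2 overlapped almost wholly, at 14.4 to 32.9 and 17.1 to 34.7 with ABA. Positions under the authors' cutoff are missing, which lifts the mean depth of the shallower genes.

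Per 1000000 nuclear base reads, CYC1 had 173 with ABA and 136 without ABA, a ratio of 1.27 (1.23 to 1.32), and ATP5B had 567 and 462, a ratio of 1.23 (1.20 to 1.25). UQCRC2 had a ratio of 1.12 (1.09 to 1.15), ATP5A1 1.10 (1.07 to 1.12), SDHA 1.08 (1.05 to 1.12) and UQCRC1 1.05 (1.02 to 1.08). A read is counted at every listed A it covers, so the depth intervals are too narrow. All nuclear blocks ran from 0.716 at the 5th percentile to 1.38 at the 95th, around a median of 1.01, and the ratios of CYC1 and ATP5B lay above 89.3% and 85.4% of them. A block is smaller than a gene, which widens the spread of blocks. Of all nuclear blocks, 51.2% were above 1, and blocks of the same gene are not independent of each other. Blocks of ATP5A1 and ATP5B were above 1 in 10 of 10 and 9 of 9, while those of UQCRC1 were above 1 in 6 of 11 and ranged from 0.837 to 1.34. Those of SDHA were above 1 in 7 of 11 and ranged from 0.787 to 1.61. With at least 20 reads required in both libraries the SDHA ratio was 0.985 (0.940 to 1.03), and the UQCRC1 interval included 1 (1.03, 0.995 to 1.07). The 6 genes pooled stood at 1.15 (1.13 to 1.16) and the mitochondrial genome, both strands pooled, at 1.09 (1.09 to 1.10). Its minus strand went the other way in unscaled A plus G reads, with 7757 with ABA and 12079 without ABA. These minus-strand counts cover positions listed in either library, whereas 1.09 covers those listed in both, so the values are not directly comparable. In RNA of whole cultures, fewer cells with a transcript and less RNA per cell cannot be told apart.

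**Figure D4:**
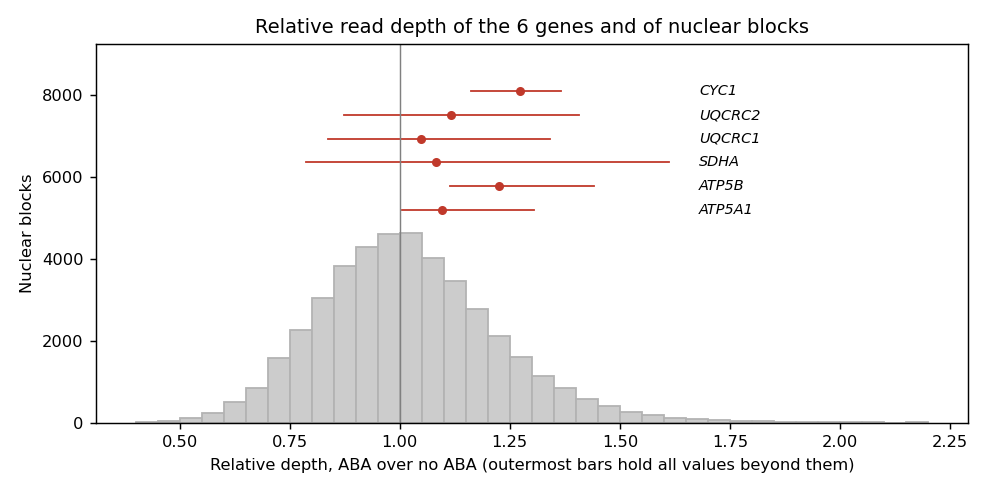
Relative read depth, ABA over no ABA, of 43870 nuclear blocks (grey histogram, number of blocks) and of the 6 genes (red points), with red lines from the lowest to the highest block of each gene. CYC1 at 1.27 and ATP5B at 1.23 are the highest of the 6, and all 6 points lie inside the range of most nuclear blocks.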

How the data were processed

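Per the labels' protocols, RNA was extracted with the RNeasy Mini kit and libraries came from the KAPA mRNA HyperPrep kit. Adapter trimmer cutadapt, aligner HISAT2 and build hg19 are named in the submitters' processing notes. The program that counted bases, strand assignment and any removal of duplicates are not given in the sources used here. The authors deposited counts of A, C, G and T reads per listed position, with no normalisation. The cutoff on single base reads was 5, per the file headers, and the lowest depth found is 6.

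Minus-strand T-to-C counts were read as A-to-G. Positions of chromosomes 1 to 22 and X are nuclear. Shares have Clopper-Pearson intervals, ratios exact conditional binomial intervals, and quotients of ratios and differences normal approximations. A position with G in at least 35% of A plus G reads in either library is variant-like and was left out, likewise for C and T in their own rates. The per-position Fisher's exact test was tested on simulated data. Floors are 3 reads. The members and lists were chosen with earlier results of these data known, and depth classes, adjacent bases and parts of the transcripts after seeing them. Named positions are, per gene, up to 3 with the largest change among those that had at least 3 G reads in a library and 20 reads or more in each, and the variant-like ones. Other positions were named after their values were seen. Other genes of the pathway were not located. Versions were scipy 1.17.1, pandas 2.3.3, numpy 2.4.6, matplotlib 3.10.9 and Python 3.11.15, and the seed was 1.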

Additional observations from a re-analysis of the deposited data

How the results depend on the processing

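The pooled ratio of the 6 genes stayed above 1, with its interval, under 12 of 13 alternatives. Some of these kept variant-like positions, asked for 20 reads, used positions listed in both libraries or thinned reads to equal depth. Others left out the leading position or 1 gene, or took positions of 20 to 49 reads (2.25, 1.34 to 3.93). The exception was positions with at least 50 reads, at 1.17. Both depth classes were chosen after seeing the data. The quotient against the mitochondrial genome was 1.51 (0.974 to 2.35) with a coverage minimum of 20 and 0.928 with at least 50 reads. That against other nuclear positions included 1 throughout and fell below 1 at 0.941 with variant-like positions kept, 0.988 with a coverage minimum of 20 and 0.628 with at least 50 reads. The ATP5A1 interval included 1 at 2.13 (coverage minimum of 20), 2 (thinned) and 2.06 (leading position left out). The other 5 genes' intervals included 1 under every alternative run. With a coverage minimum of 20, relative depth was 1.06 for ATP5A1 and UQCRC2, 1.17 for ATP5B, 1.15 for CYC1, 1.03 (0.995 to 1.07) for UQCRC1 and 0.985 for SDHA. Member positions higher by the set change numbered 0 with a coverage minimum of 50 and 3 with a change of 5 points, and 0 were lower under any setting run. The causes of these changes were not tested. No paired analysis was possible because each condition had 1 library.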

Other observations

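The strand opposite to each gene was listed at few positions. Inside the CYC1 interval it had 7 positions with 42 reads with ABA and 1 position with 6 reads without ABA. Inside the ATP5B interval it had 6 positions with 38 reads with ABA and 4 positions with 28 reads without ABA. None of these reads was an A-to-G mismatch, and the other 4 intervals had 0 listed positions on the opposite strand in either library.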
